A study of Mus musculus with 11 samples.

Results

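The comparison concerns gingival epithelium of B6 mice, labelled male, with a silk ligature around the upper second molars. The ligature had either been left in place (ligature group, n = 3 libraries) or taken off on day 3 (removal group, n = 4). These 7 libraries are all those titled ligature or Removal among the 11 of the series. The other 4 libraries came from naive mice. They give a level to read beside the values, and they enter the fit that estimates the spread between libraries. RNA was extracted from epithelium lifted off Dispase-treated gingiva and sequenced as polyA-selected, strand-preserving libraries. The labels do not give the age of the mice or the day of collection, and do not say whether each library came from 1 animal. P-values therefore measure the spread between libraries of a group, naive ones included, which may in part be technical.

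A ligature holds dental plaque against the gum, so that the epithelium facing the tooth is exposed to bacteria, inflammatory mediators and mechanical strain. Taking it off withdraws that stimulus. Gingival keratinocytes answer such stimuli with secreted antimicrobial proteins, with ligands that act on neighbouring cells through the epidermal growth factor (EGF) receptor, and with immediate early genes, which are transcribed within minutes of a signal and need no new protein synthesis.

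The deposited table names 178 genes, and 176 passed the count filter. These 7 libraries held 294602 to 503570 counts over those genes, which is a part of each library and not its depth. In DESeq2 with a term for library set, the largest unadjusted p of any of the 178 for whichever of ligature and removal differed more from naive was 0.0103, while 86 genes had a p under 0.05 for removal against ligature. The genes thus appear to have been chosen for differing from naive tissue, and counts of called genes are shares of this table. Against naive, 161 genes had a p under 0.05 for ligature and 135 for removal. The libraries compared here thus appear to have taken part in that choice. The p-values and counts of calls make no allowance for it. Levels are normalised read counts, meaning raw counts divided by the size factor that the authors used for that library.

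Removal replicate 1 stands apart from removal replicates 2, 3 and 4, and its values are given separately. The table also holds batch-corrected values, which were recovered from the normalised counts when the libraries were divided into 2 sets, as no label does. Set A holds ligature replicate 1 and removal replicates 2 to 4, and set B holds ligature replicates 2 and 3 and removal replicate 1 (each with 2 naive libraries). Removal replicate 1 also carried the only reads of Usp9y, a gene of the Y chromosome, with 30 counts against 0 in the other 10 libraries, all of them labelled male. The 0 counts leave that label in doubt for those 10 libraries. Transcripts of 2 secretory gland proteins set it apart as well. Scgb2b12, a secretoglobin, had 11, 9 and 20 counts in the ligature libraries, 49 in removal replicate 1 and 0 in removal replicates 2 to 4. Smr2, a submandibular gland protein, had 5, 3 and 2 counts in the ligature libraries, 7 in removal replicate 1 and 0 in the remaining removal libraries. Against a floor of 3 counts over removal replicates 2 to 4, Scgb2b12 was at least 12.6-fold higher in the ligature group and at least 56.6-fold higher in removal replicate 1 (counting error only). The part of the library set, of a difference in sex between the mice, or of material from another tissue, in the results below was not tested.

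With the ligature off, transcripts of antimicrobial proteins, of the C-type lectins Clec2e and Clec2g, of the EGF receptor ligand Areg, of heat shock chaperones and of some rapid-response transcription factors were higher than with the ligature in place. The glycogen-targeting subunit Ppp1r3b, the corepressor Nab2 and the actin-associated protein Pdlim4 were lower. Removal replicate 1 did not share all of these rises. Within set B the log2 difference was -0.08 for Bpifa5, 0.10 for Defb3 and 0.15 for Areg. Over the 35 called genes the median within set B was 0.39 in the direction of the call, beside 0.73 within set A. For the genes that rose and whose naive values are given below, every ligature library lay below the naive range. Lce3d, which also rose, did not show this, with 377 in ligature replicate 1 and 371 in naive replicate 3. A choice of genes for differing from naive tissue favours such gaps, so they are no separate result. In tissue of this kind, fewer cells of a type and less RNA per cell cannot be told apart. Of 176 genes tested, 35 (19.9%) were called at an adjusted p under 0.05 in edgeR, 30 higher (17.0%) and 5 lower (2.84%). The 4 removal libraries did not overlap the 3 ligature libraries in 52 genes (29.5%), and lay above them in 41 (23.3%) and below them in 11 (6.25%).

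These calls rest on few libraries. In edgeR 0 genes were called without replicate 1 or 2 of the ligature group, and 0 without replicate 2 or 4 of the removal group, with 49 to 72 genes at an unadjusted p under 0.05. Dropping ligature replicate 3 left 3 calls and dropping removal replicate 3 left 21. DESeq2 called 36 to 50 genes in these 6 fits, and all 35 genes kept their direction in each of them in both tools. Scaling also bears on the split. TMM factors computed over the table moved the median log2 difference of all genes from 0.20 to 0.04 and gave 17 genes higher and 12 lower. Median-of-ratios factors gave 16 higher and 30 lower. All 35 genes kept their direction under both scalings. With TMM 22 of them kept their call and with median-of-ratios factors 21, and each gene that lost it with TMM is named below. Zfp36 lost its call with median-of-ratios factors only.

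**Figure D1:**
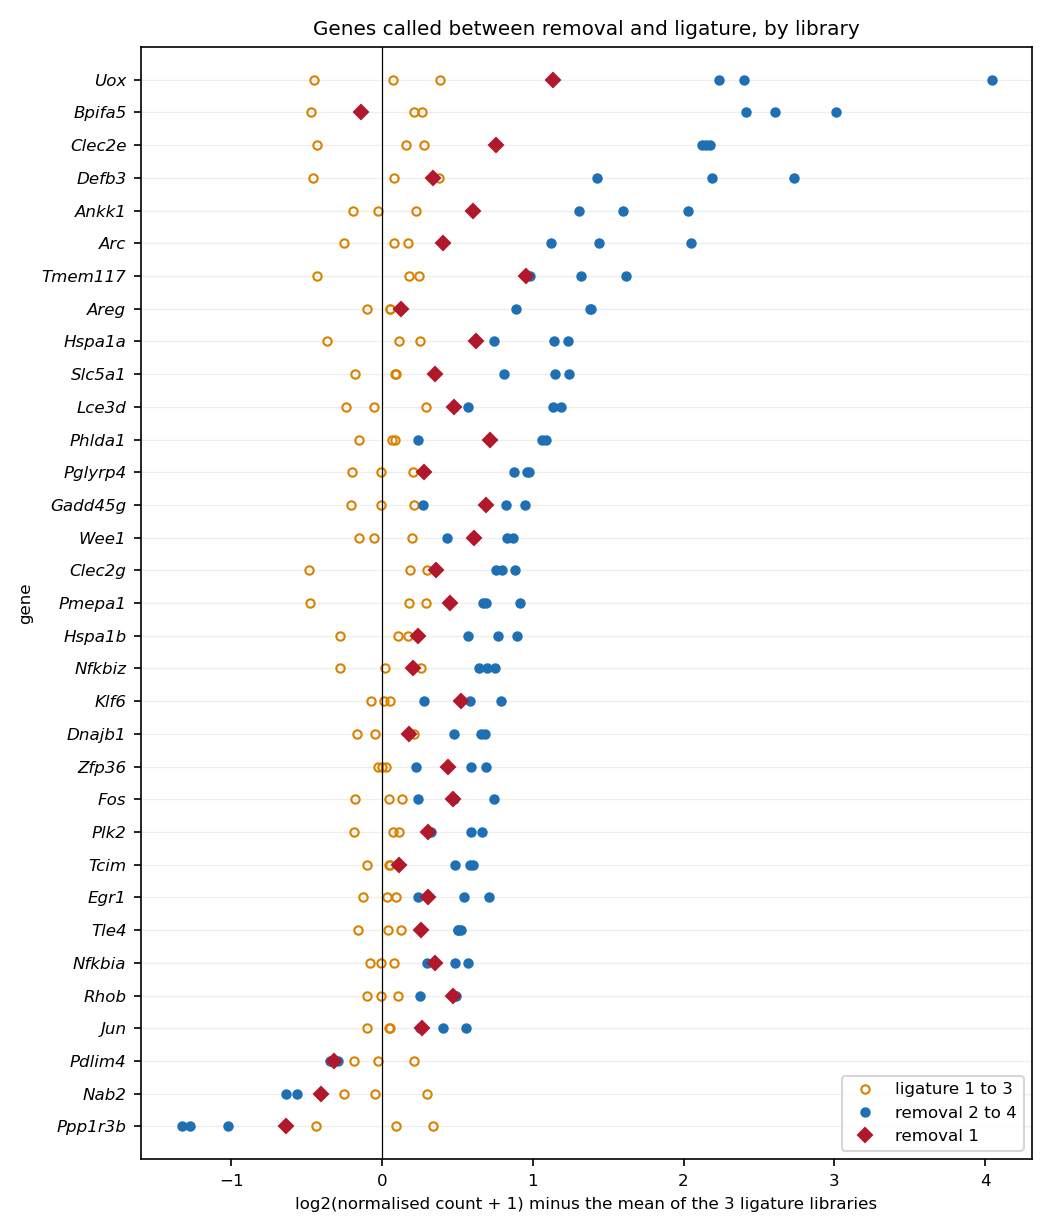
Each row is 1 of 33 called genes with an established symbol, and the horizontal axis gives log2(normalised count + 1) minus the mean of the 3 ligature libraries (open circles). Filled circles are removal replicates 2 to 4, which lie to the right of all ligature libraries in the 30 genes that rose, and red diamonds are removal replicate 1, which lies inside the ligature range for Bpifa5, Defb3, Nfkbiz and Dnajb1.

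Secreted antimicrobial proteins showed some of the largest rises. Defb3 (ENSMUSG00000039775), a beta-defensin that permeabilises microbial membranes, stood at 34.9, 63.2 and 51.1 normalised counts in ligature replicates 1 to 3. It reached 224, 327 and 132 in removal replicates 2 to 4, against 61.4 in removal replicate 1. Removal replicates 2 to 4 thus exceeded every ligature library, whereas removal replicate 1 lay within the ligature range. The fitted log2 difference was 1.90 (SE 0.50, adjusted p = 0.0276), and 2.19 without removal replicate 1. Naive libraries held 96.0 to 232.

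Bpifa5 (ENSMUSG00000027484) belongs to a family of secreted proteins with the lipid-binding fold of bactericidal/permeability-increasing protein. Its levels were 176, 182 and 109 with the ligature in place, 810.4, 1227 and 929 in removal replicates 2 to 4 and 137 in removal replicate 1. Removal replicates 2 to 4 thus fell inside the naive range of 246 to 1432, and removal replicate 1 inside that of the ligature group. The log2 difference of 2.32 (SE 0.67, adjusted p = 0.0279) was no longer called with a term for library set (1.69, adjusted p = 0.0785). It was 2.49 within set A and -0.08 within set B.

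Pglyrp4 (ENSMUSG00000042250), which binds bacterial peptidoglycan, went from 352, 266 and 303 in the ligature libraries to 600.4, 595 and 559 in removal replicates 2 to 4 and 371 in removal replicate 1. The groups did not overlap, and the log2 difference was 0.79 (SE 0.22, adjusted p = 0.0276). Defb14, another beta-defensin, was the measured antimicrobial gene that did not pass the test, with 112 to 129 in ligature and 118 to 183 in removal libraries (log2 difference 0.36, adjusted p = 0.165). Of 25 genes in the antimicrobial list 4 were in the table and 3 of those 4 rose. Over all genes tested 17.0% were called higher. The median log2 difference of the 4 was 1.35, beside 0.20 over all genes tested.

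Clec2e and Clec2g encode C-type lectin-like surface proteins of a family whose members are read by receptors of natural killer cells. Clec2e (ENSMUSG00000030155) stood at 21.3, 12.7 and 19.5 in the ligature libraries and at 82.4, 80.7 and 79.1 in removal replicates 2 to 4. Removal replicate 1, at 30.1, lay between these groups and nearer the ligature libraries. The log2 difference over all 4 removal libraries was 1.92 (SE 0.55, adjusted p = 0.0276), a 3.8-fold rise, and naive libraries spread from 23.8 to 135. Clec2g (ENSMUSG00000000248) rose less, from 277, 161 and 257 to 416, 392 and 381 with 289 in removal replicate 1 (log2 difference 0.67, adjusted p = 0.035). With TMM the Clec2g call was lost (0.52, adjusted p = 0.0532).

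Both measured EGF receptor ligands had higher means after removal, and 1 of the 2 passed the test. Of all genes tested, 17.0% were called higher. Areg (ENSMUSG00000029378), amphiregulin, had 47.7, 47.7 and 42.8 normalised counts with the ligature in place, below the naive range of 112 to 160. The 3 removal libraries of set A held 122, 86.1 and 122, while removal replicate 1 held 50.2, just above the ligature maximum of 47.7. Its log2 difference was 1.05 (SE 0.30, adjusted p = 0.0276), with 1.20 within set A and 0.15 within set B. Hbegf (ENSMUSG00000024486), heparin-binding EGF-like growth factor, stood at 809, 566 and 623 in ligature libraries, 1146, 924 and 1177 in removal replicates 2 to 4 and 673 in removal replicate 1. It missed the threshold with all libraries (0.56, adjusted p = 0.0701) and passed it without removal replicate 1 (0.70, adjusted p = 0.0145).

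**Figure D2:**
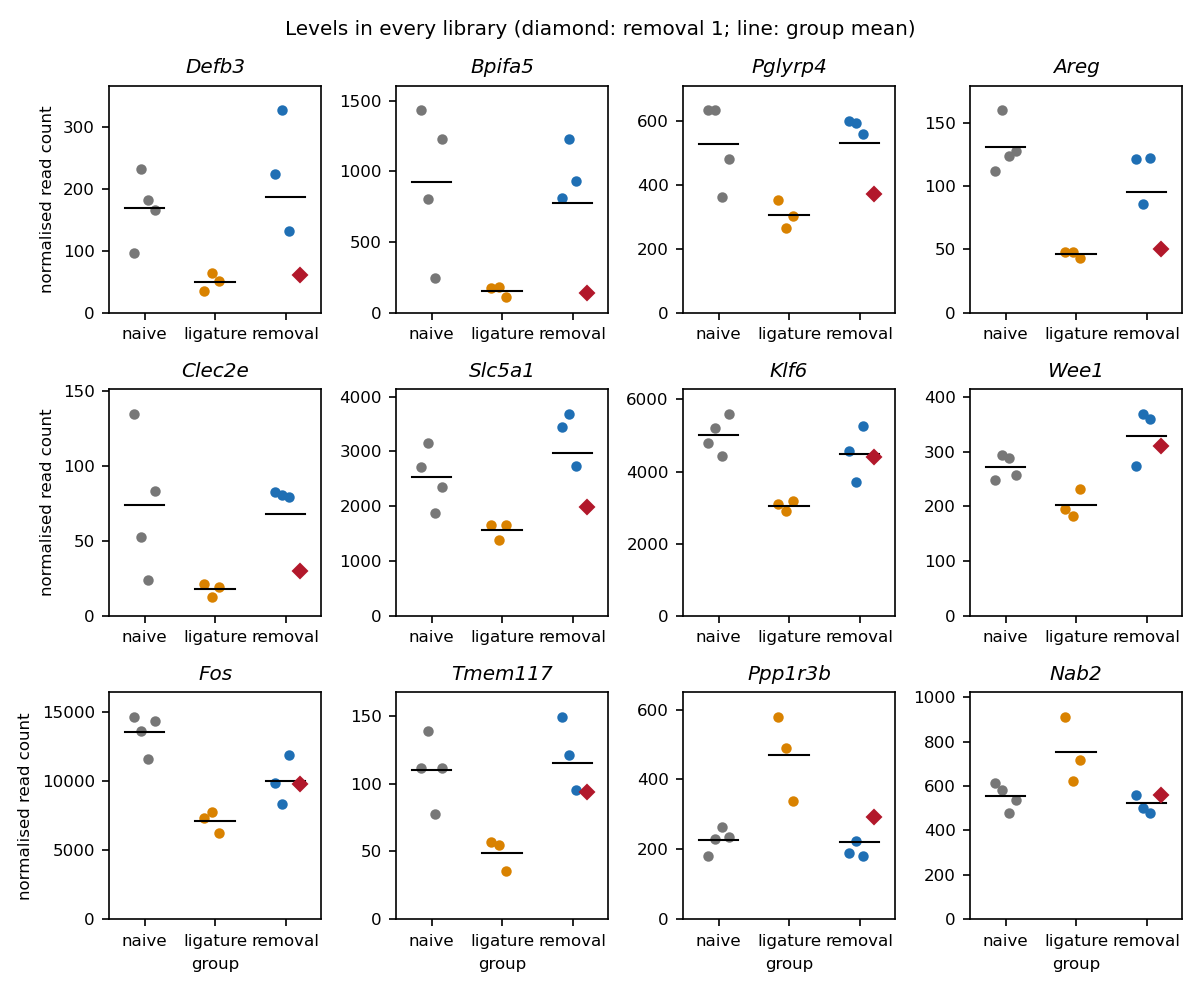
Normalised read counts of 12 genes in naive, ligature and removal libraries, on linear axes from 0, with a point per library, a diamond for removal replicate 1 and a line at the group mean. In the upper row and in Clec2e and Slc5a1 the diamond lies below the other removal libraries, whereas in Klf6, Wee1 and Fos it lies among them.

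Promoter sequence is shown for 6 genes that rose, picked because each matches a short motif. In all, 6 motifs were searched. Each motif shown was searched for as the site of a factor known from stress or growth factor responses. The sequences are from RefSeq (GRCm38.p6, not the GRCm39 build named for these data), 160 bases ending just before the start site, 5′ to 3′ on the gene's strand. Capitals mark TGACGTCA, the cyclic AMP response element, in Areg (chr5:91139439-91139598, plus strand) and the kinase gene Plk2 (chr13:110394884-110395043, plus strand).
Areg: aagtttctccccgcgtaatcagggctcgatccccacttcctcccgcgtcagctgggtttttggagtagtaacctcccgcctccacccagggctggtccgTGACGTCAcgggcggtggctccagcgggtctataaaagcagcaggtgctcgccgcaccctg
Plk2: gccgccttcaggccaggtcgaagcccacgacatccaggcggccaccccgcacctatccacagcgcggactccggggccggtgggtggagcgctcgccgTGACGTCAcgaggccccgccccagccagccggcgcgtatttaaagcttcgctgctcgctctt
In Clec2e (chr6:129100904-129101063, minus strand), Clec2g (chr6:128934221-128934380, plus strand) and Bpifa5 (chr2:154162447-154162606, plus strand) capitals mark TGANTCA. This pattern was searched for as the site of AP-1 factors such as Fos and Jun dimers. Its middle letter was left free, and is A in Clec2e, G in Clec2g and C in Bpifa5. The usual AP-1 site has C or G there, so the pattern is looser and the Clec2e match departs from that site. The shares of TGANTCA given below count all of these matches.
Clec2e: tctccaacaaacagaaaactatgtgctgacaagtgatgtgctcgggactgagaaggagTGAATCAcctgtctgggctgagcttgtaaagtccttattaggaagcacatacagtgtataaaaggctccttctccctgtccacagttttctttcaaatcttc
Clec2g: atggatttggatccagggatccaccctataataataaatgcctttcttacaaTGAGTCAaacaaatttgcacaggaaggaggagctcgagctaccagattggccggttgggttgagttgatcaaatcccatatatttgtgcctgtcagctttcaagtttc
Bpifa5: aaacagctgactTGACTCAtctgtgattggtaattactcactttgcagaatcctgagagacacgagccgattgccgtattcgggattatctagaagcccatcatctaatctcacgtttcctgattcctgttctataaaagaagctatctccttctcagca
For Hspa1a (chr17:34972157-34972316, minus strand), capitals mark GAANNTTC, the core of a heat shock element.
Hspa1a: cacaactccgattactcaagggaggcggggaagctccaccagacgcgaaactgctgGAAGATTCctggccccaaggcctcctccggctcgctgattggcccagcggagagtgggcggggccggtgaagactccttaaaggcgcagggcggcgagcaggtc

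In the 250 bases before the start site, searched on both strands, TGANTCA was present in 3 of the 21 genes called higher that had a promoter sequence (14.3%), in 6.06% of the 132 tested genes with one and in 7.82% of 27025 mouse genes. For TGACGTCA these shares were 9.52% (2 of 21), 4.55% and 1.77%. GAANNTTC occurred in 14.3% (3 of 21, Hspa1a, Hspa1b and Jun), 4.55% and 7.73%. In Hspa1a and Hspa1b the match lies at the same place, 104 bases before the start site. These genes are nearly identical copies, so 2 of the 3 matches are not separate cases. No match of 1 of these motifs overlaps a match of another in the sequences shown. A match describes letters in this window, and no binding was measured.

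Rapid-response genes rose in part. Of 64 genes listed as immediate early or rapid-response genes 27 were tested, 9 rose and 1 fell, where 17.0% of all genes tested were called higher and 2.84% lower. The median log2 difference was 0.26, beside 0.20 over all genes tested, so the list as a whole lay near the rest of the table. With TMM 3 rose and 1 fell. Klf6 (ENSMUSG00000000078), a zinc finger transcription factor, had the smallest p of the list. It stood at 3091, 2911 and 3175 in ligature libraries, 4573, 3701 and 5278 in removal replicates 2 to 4 and 4396 in removal replicate 1 (log2 difference 0.55, SE 0.12, adjusted p = 0.0221). All 4 removal libraries exceeded all 3 ligature libraries, and removal replicate 1 lay within the range of the other removal libraries. Naive libraries held 4439 to 5611.

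In the AP-1 subunits Fos and Jun, too, removal replicate 1 lay among the other removal libraries. Fos (ENSMUSG00000021250) had 7290.2, 7764 and 6251 normalised counts in the ligature group and 9849.9, 8362 and 11861 in removal replicates 2 to 4. Removal replicate 1 had 9795. Naive libraries, at 11604 to 14653, were above every ligature library and above 3 of the 4 removal libraries. The log2 difference of Fos was 0.49 (adjusted p = 0.0276) and that of Jun 0.37 (adjusted p = 0.0352). Jun stood at 9943 to 11082 in ligature and 12684 to 15696 in removal libraries. Fosb and Atf3, partners of the same family, had log2 differences of 0.55 and 0.67 and missed the threshold (adjusted p = 0.0647 and 0.108).

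Egr1 (ENSMUSG00000038418), an immediate early zinc finger activator, went from 9473, 9081 and 8143 to 12959, 10473 and 14508 with 10964 in removal replicate 1 (log2 difference 0.46, adjusted p = 0.0276). Nab2 (ENSMUSG00000025402), the corepressor that binds Egr1 and restrains it, moved the other way. It had 913, 624 and 719 with the ligature in place, 558, 501 and 476 in removal replicates 2 to 4 and 561 in removal replicate 1, a log2 difference of -0.52 (SE 0.14, adjusted p = 0.0276). Its values after removal overlapped the naive range of 479 to 614, while Egr1 in naive libraries ranged from 16956.5 to 19550.4. Arc (ENSMUSG00000022602), an activity-induced gene best known from neurons, had the largest rise of the list, from 40.9, 30.2 and 38.1 to 152, 79.6 and 99.7 (log2 difference 1.38, SE 0.34, adjusted p = 0.026). Its level in removal replicate 1 was 48.0, close to the ligature maximum of 40.9, and naive libraries held 174 to 275.

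Among the other called members, Zfp36, which directs decay of cytokine mRNAs, had 5785 to 5985 in ligature and 6868 to 9478 in removal libraries (log2 difference 0.49, adjusted p = 0.026). Gadd45g, a stress sensor, had 227 to 304 and 316 to 507 (log2 difference 0.70). Rhob, a growth-factor-induced small GTPase, had 1517 to 1747 and 1936 to 2279 (0.42), and Plk2, a stress-induced kinase, 1108 to 1367 and 1561 to 1999.8 (0.48). In all 4 genes the ligature and removal libraries did not overlap. With TMM the calls of Egr1, Fos, Jun, Gadd45g, Rhob and Plk2 were lost, at log2 differences of 0.30, 0.33, 0.21, 0.53, 0.27 and 0.31. Of the members not called, 16 lay between -0.05 for Ppp1r15a, a stress-induced phosphatase subunit, and 0.67 for Atf3. The remaining one, Trib1, a pseudokinase, was called without removal replicate 1.

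All 3 measured heat shock chaperone genes rose, among the 15 on that list (median log2 difference 0.63, beside 0.20 over all genes). Of all genes tested, 17.0% were called higher. Hspa1a (ENSMUSG00000091971), an inducible Hsp70, went from 793, 569 and 871 in ligature libraries to 1724, 1224 and 1619.8 in removal replicates 2 to 4 and 1130.0 in removal replicate 1 (log2 difference 0.94, SE 0.19, adjusted p = 0.0221). Hspa1a stood at 1487 to 2148 in naive libraries. Hspa1b had 1534 to 2101 and 2199 to 3457 (log2 difference 0.62). Hspa1a and Hspa1b are nearly identical copies, so reads may have been split between them or discarded, and their separate values are uncertain. Dnajb1, the J-domain partner of Hsp70, had 4213, 3237 and 3516 with the ligature, 5838, 5057 and 5740.1 in removal replicates 2 to 4 and 4117 in removal replicate 1 (log2 difference 0.51, adjusted p = 0.0276). Removal replicate 1 was within the ligature range there. All 3 stayed called higher with TMM and with a term for library set.

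Of 3 measured genes of signalling through NF-kappaB, the transcription factor downstream of Toll-like receptors, 2 rose. Over all genes tested 17.0% were called higher, and the median log2 difference was 0.20, beside 0.43 for these 3. Nfkbia (ENSMUSG00000021025), which holds NF-kappaB in the cytoplasm and is itself one of its targets, had 2159, 2035 and 1935 in ligature libraries, 3031, 2507 and 2861 in removal replicates 2 to 4 and 2603 in removal replicate 1 (log2 difference 0.43, adjusted p = 0.0276). Nfkbiz (ENSMUSG00000035356), a nuclear member of the same family that acts with NF-kappaB at some of its targets, had 1388, 1639.6 and 1128, then 2220.2, 2304 and 2143, with 1582 in removal replicate 1 (log2 difference 0.57, adjusted p = 0.0276). For Nfkbia removal replicate 1 fell among the other removal libraries, and for Nfkbiz it fell within the ligature range. Nfkbia stood at 3310 to 4744 in naive libraries. Myd88, the adaptor of Toll-like receptors, stood at 575 to 720.0 and 626 to 800.0 and did not pass the test (0.16). Both calls were lost with TMM (0.27 and 0.41).

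Several other genes rose that belong to none of the lists. Uox (ENSMUSG00000028186), urate oxidase, had the largest rise among the called genes. Its ligature libraries held 9.37, 17.5 and 13.9, removal replicates 2 to 4 65.9, 233 and 74.2 and removal replicate 1 30.1, a log2 difference of 2.88 (SE 0.62, adjusted p = 0.0221). The value of removal replicate 3 was above the naive range of 62.0 to 99.3. Slc5a1 (ENSMUSG00000011034), the sodium-driven glucose transporter SGLT1, went from 1661, 1379 and 1657 to 3449.8, 3691 and 2733 with 1994 in removal replicate 1 (log2 difference 0.92, SE 0.21). Lce3d, of the late cornified envelope, had 261 to 377 and 429.9 to 703 (log2 difference 0.86, adjusted p = 0.0276), with 429.9 in removal replicate 1.

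Wee1 (ENSMUSG00000031016), the kinase that holds back entry into mitosis, had 195, 182 and 232 with the ligature in place, 273, 369.5 and 360.0 in removal replicates 2 to 4 and 309 in removal replicate 1 (log2 difference 0.69, SE 0.15, adjusted p = 0.0221). Tmem117, a transmembrane protein, had 57.1, 54.5 and 35.3, then 149, 121 and 95.6 and 93.8 (log2 difference 1.23, adjusted p = 0.0221). In these genes removal replicate 1 was on the removal side, at 86.2% and 73.1% of the distance from the ligature mean to the mean of removal replicates 2 to 4. Ankk1, a kinase-domain protein with ankyrin repeats, had 43.8 to 58.8 in ligature libraries, 126 to 208 in removal replicates 2 to 4 and 77.0 in removal replicate 1 (1.48, adjusted p = 0.0238).

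A further 4 called genes rose. Phlda1, a growth-factor-induced pleckstrin homology domain protein, had 311 to 367 in ligature and 409 to 737 in removal libraries (log2 difference 0.82). Pmepa1, which dampens TGF-beta signalling, had 325 to 555 and 619 to 854 (0.65), and its log2 difference was 1.24 within set A and 0.21 within set B. Tcim, a small regulator of transcription, had 931 to 1035 and 1078 to 1519 (0.46), and Tle4, a Groucho-family corepressor, 421 to 514 and 564 to 679 (0.45). In these 4 genes the groups did not overlap, and with TMM each lost its call. Their TMM log2 differences were 0.64, 0.48, 0.29 and 0.29.

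Ppp1r3b (ENSMUSG00000046794), which brings protein phosphatase 1 to glycogen and thereby favours glycogen synthesis, showed the largest fall among called genes with an established symbol. It stood at 579, 488 and 338 with the ligature in place, at 188, 225 and 181 in removal replicates 2 to 4 and at 294 in removal replicate 1. The groups did not overlap, naive libraries held 180.4 to 263, and the log2 difference was -1.08 (SE 0.21, adjusted p = 0.0221), a 2.11-fold fall. It was -1.55 within set A and -0.49 within set B. Pfkp, the other measured gene of the 28 on the glucose and glycogen list, had 2154 to 3006 and 1927 to 2353 (-0.21, adjusted p = 0.286), and was called lower with median-of-ratios factors (-0.40) and with a term for library set (-0.32, adjusted p = 0.0367).

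Pdlim4 had 898, 758 and 679.8 with the ligature, whereas all 4 removal libraries lay between 608 and 631 (-0.33, adjusted p = 0.0318). The gene model 2310057J18Rik also fell (log2 difference -3.91, SE 1.06, adjusted p = 0.0276). Its ligature libraries held 158, 39.9 and 14.9, removal replicates 2 to 4 2.06, 1.09 and 1.65 and removal replicate 1 14.5. The groups did not overlap, and ligature replicate 1 was the highest library.

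Other gene groups did not pass the test. The 5 measured mitosis and chromosome maintenance genes of 29 listed (Mki67, Aspm, Kif14, Racgap1 and Neil3) had log2 differences of -0.40 to -0.15, with 0 called. Kif14, a mitotic kinesin, was called lower with TMM (-0.55, adjusted p = 0.0416). With median-of-ratios factors 4 of the 5 were called lower, at -0.60 for Kif14, -0.41 for Aspm, -0.40 for Mki67 and -0.35 for the cytokinesis regulator Racgap1. Mki67, a marker of cycling cells, stood at 5180.5, 4229.8 and 5403 in ligature libraries, 3865, 5229 and 3791 in removal replicates 2 to 4 and 4345 in removal replicate 1, so that the groups overlapped. Of the 39 keratinocyte differentiation and progenitor genes 4 were measured and 0 called, namely Krt10, Ugcg, Msi1 and Lgr6. With median-of-ratios factors Msi1, an RNA-binding protein, and Lgr6, a receptor of progenitor cells, were called lower (-0.61 and -0.44). Krt10, a suprabasal keratin and 1 of the 11 keratinocyte markers listed, was the most abundant, at 187178, 116428 and 133288 with the ligature and 149110.0, 162606 and 129810.0 in removal replicates 2 to 4. Removal replicate 1 had the lowest Krt10 level of these 7 libraries, 88347.

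Cytokine-induced Ptgs2, Socs3 and Cebpb, which encode a prostaglandin synthase, an inhibitor of cytokine signalling and a transcription factor, had log2 differences of 0.36, 0.36 and 0.34 with 0 called. Socs3 was called higher with a term for library set (0.59, adjusted p = 0.028). The vascular genes Vegfa and Adm stood at -0.25 and 0.40. Vegfa, the vascular growth factor, was called lower with TMM (-0.40), with median-of-ratios factors (-0.45) and with a term for library set (-0.32, adjusted p = 0.038). Zbtb16 and Angptl4, both induced by glucocorticoids, stood at -0.54 and -0.08, neither of them called. The table holds no gene of 12 of the 15 cell type marker lists. Cd68, a lysosomal protein of macrophages, had 170.4, 178 and 191 with the ligature, 229.6, 208 and 212 in removal replicates 2 to 4 and 238 in removal replicate 1 (0.30, adjusted p = 0.173).

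**Figure D3:**
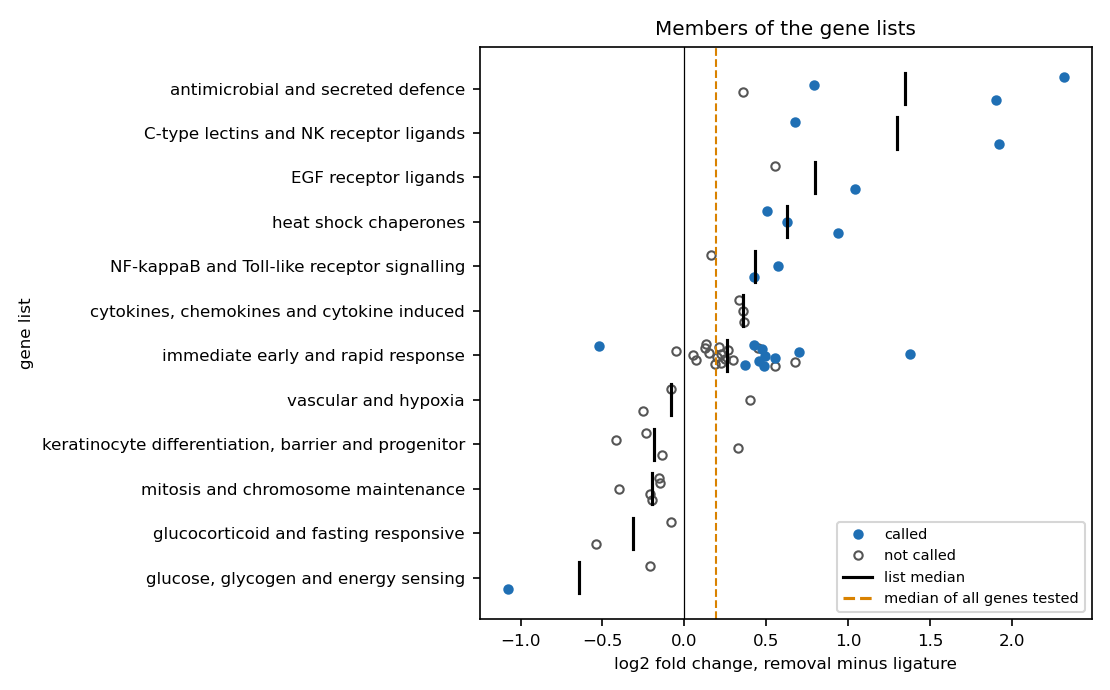
Log2 fold change of removal minus ligature for each measured member of the 12 pathway lists with more than 1 measured gene, with a filled point where the gene was called, a bar at the list median and a dashed line at the median of all genes tested (0.20). The antimicrobial list reaches from 0.36 to 2.32, and the 5 mitosis genes lie below 0.

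Removal replicate 1 was placed in genes called from the other libraries. Without it, 49 of 175 genes (28.0%) were called between removal replicates 2 to 4 and the ligature group, 38 higher (21.7%) and 11 lower (6.29%), and all 35 genes called with all libraries were among them. These 3 removal libraries did not overlap the ligature libraries in 85 of 176 genes (48.3%). In normalised counts, removal replicate 1 lay within the ligature range in 13 of the 49, between the ranges in 25 and within the range of removal replicates 2 to 4 in 11. It lay past either range in 0. Its median place was 35.6% of the way from the ligature mean to the mean of removal replicates 2 to 4, on log2(normalised count + 1). These places may lean towards the ligature side, since the 49 genes were called on removal replicates 2 to 4. Over all 176 genes tested the groups overlapped in 91. Elsewhere removal replicate 1 lay within the ligature range in 28, between the ranges in 31 and within the removal range in 18. It lay past the ligature range in 5 and past the removal range in 3. Among the 49 genes removal replicate 1 was outside the range of the other 3 removal libraries in 38. The corresponding counts were 20, 23 and 17 for removal replicates 2, 3 and 4, but the 49 genes were called with those libraries. Over all 176 genes tested, removal replicate 1 was outside the range of the other removal libraries in 114, against 82, 90 and 65 for removal replicates 2, 3 and 4.

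Where it fell differed between genes. Of the 11 rapid-response genes among the 49, removal replicate 1 was within the range of removal replicates 2 to 4 in 7 (Egr1, Fos, Gadd45g, Jun, Klf6, Rhob and Zfp36), between the ranges in 3 and within the ligature range in 1. Of the other 38 genes it was within the removal range in 4 (Nfkbia, Pdlim4, Phlda1 and Wee1), between in 22 and within the ligature range in 12. Whether these shares differ was not tested. Bpifa5, Defb3 and Areg lay at -5.25%, 16% and 10.2% of the distance, whereas Fos and Klf6 lay at 96.2% and 95.6%. In the batch-corrected values of the authors' table, the count within the ligature range was 4 of 49 (Bpifa5, Ccer2, Defb3 and Nfkbiz). Removal replicate 1 lay between the ranges in 22 and within the removal range in 18. In the remaining 5 the groups overlapped, namely Cspg4, Fos, Matn4, Phlda1 and Plk2.

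**Figure D4:**
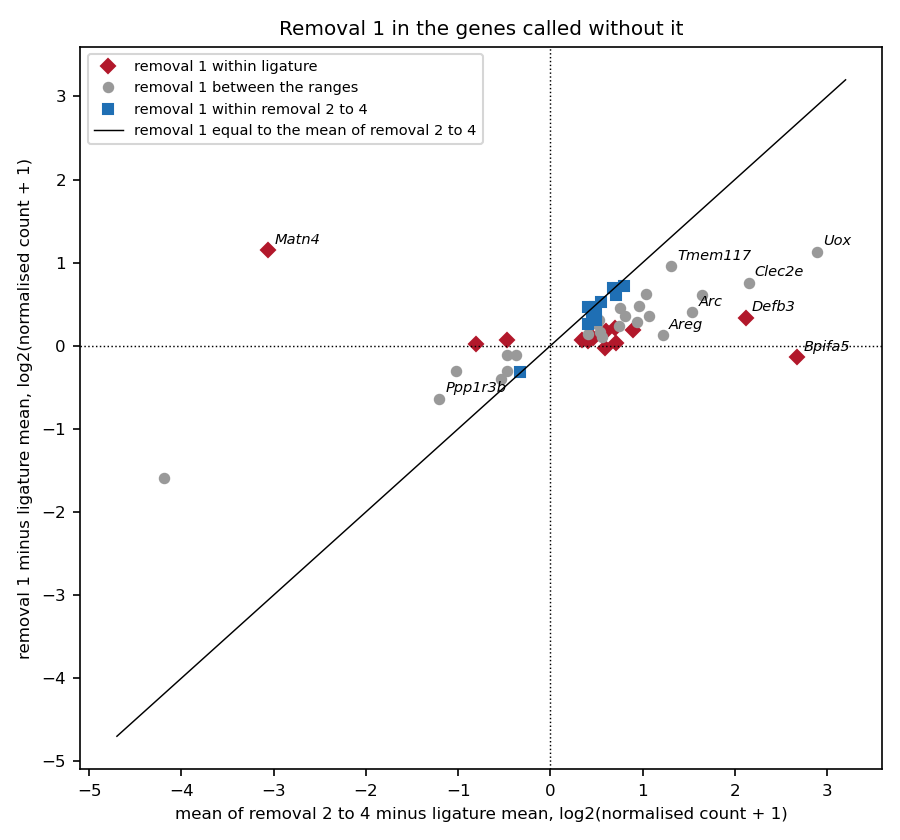
Each point is 1 of the 49 genes called without removal replicate 1, with the mean of removal replicates 2 to 4 on the horizontal axis and removal replicate 1 on the vertical axis, both as log2(normalised count + 1) minus the ligature mean, which both axes share. Red diamonds mark the 13 genes in which removal replicate 1 lay within the ligature range, grey circles the 25 between the ranges and blue squares the 11 within the range of removal replicates 2 to 4.

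Leaving removal replicate 1 out brought 14 further genes past the threshold. Among the 8 that rose were Hbegf and Trib1 above, the membrane serine protease Tmprss4 and the glucosylceramide synthase Ugcg. Tmprss4 had 930.4, 621 and 776 in ligature libraries and 1426, 1419 and 1436 in removal replicates 2 to 4, with 872 in removal replicate 1 (log2 difference without it 0.88, adjusted p = 0.0152). Ugcg, which makes the precursor of barrier glycosphingolipids, had 2381, 2005 and 2303, then 3073, 2929 and 2865, and 2321 in removal replicate 1 (log2 difference without it 0.41, adjusted p = 0.0145). The 4 other rises were in the transcriptional coactivator Pprc1, Churc1, the endosomal GTPase Rab31 and N4bp1, at 0.47, 0.53, 0.41 and 0.35.

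The 6 that fell were Nfic, Fam81a, Klhl5, Ccer2, Cspg4 and Matn4. Nfic, a nuclear factor I transcription factor, had 2035, 2091 and 2211 with the ligature and 1374, 1663 and 1538 in removal replicates 2 to 4, with 1956 in removal replicate 1 (log2 difference without it -0.47, adjusted p = 0.0138). Fam81a had 125 to 146 and 50.5 to 77.4, with 108 in removal replicate 1. The call of Matn4, matrilin 4 of cartilage and other matrices, followed the library sets. All libraries of set B, naive ones included, held 189 to 405, and those of set A 6.54 to 29.5. Its log2 difference without removal replicate 1 was -3.96 (adjusted p = 0.0403), and -0.30 with all libraries and a term for library set.

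Library set and removal are partly confounded, since 3 of 4 removal libraries but 1 of 3 ligature libraries are in set A. With a term for library set 47 of 176 genes were called (26.7%), 37 higher (21.0%) and 10 lower (5.68%), and 34 of the 35 were among them, Bpifa5 being the exception. Within set A (removal replicates 2 to 4 against ligature replicate 1) all 35 had the same direction as in the pooled fit, and within set B (removal replicate 1 against ligature replicates 2 and 3) 34 did. The median size of the log2 difference of the 35 genes in the direction of the call was 0.73 within set A and 0.39 within set B. The difference between the sets was tested for each gene. In edgeR 0 of 176 genes passed (0.0%), with 11 at an unadjusted p under 0.05, and DESeq2 called 1, the gene model 2310057J18Rik. Set B then has a single removal library and set A a single ligature library, each assumed to vary like the others, so differences of this size may not be detectable. Defb3, at 2.69 in set A and 0.10 in set B, had an unadjusted p of 0.0191 and an adjusted p of 0.597 for that difference.

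**Figure D5:**
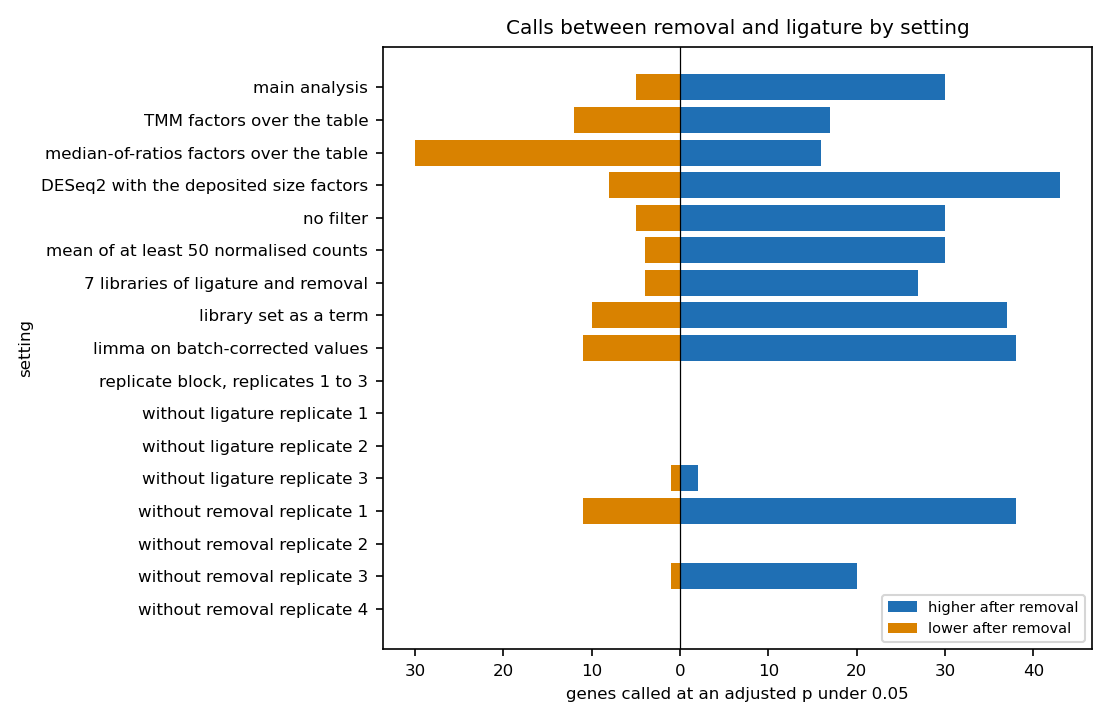
Number of genes called between removal and ligature under the main analysis and 16 alternatives, with genes higher after removal drawn to the right and genes lower to the left. Leaving out removal replicate 1 gives 49 calls, leaving out ligature replicates 1 or 2 or removal replicates 2 or 4 gives 0, and median-of-ratios scaling gives more genes lower than higher.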

How the data were processed

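The authors deposited raw counts per gene, normalised counts (a signal, which equals the count over a size factor specific to the library, per the file headers and the values) and batch-corrected values (a score on the same scale, with 7 values below 0). Per the submitters' processing notes, GRCm39, DESeq2 1.36.0, HTSeq 2.01, TopHat2 2.1.1 and cutadapt 2.10 were used, in roles the notes leave out. Not given in the sources used here are the choice of genes, the method of correction and whether counting used strand. Of 993339 rows, 993161 were empty.

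The main test was the quasi-likelihood F test of edgeR 4.0.16 (R 4.3.3) on the raw counts, with group means fitted to 11 libraries, the deposited size factors (0.757 to 1.21) and filterByExpr. P-values were adjusted by Benjamini-Hochberg over 176 genes. DESeq2 1.42.0 and limma 3.58.1 (log2 of the deposited batch-corrected value + 1, values below 0 set to 0) were alternatives. The 2 library sets were read from the deposited correction among 957 divisions (median residual 3.53e-05% of the mean, next best 1.55%). Replicates differed by more than counting noise and none was merged.

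Every called gene was named except gene models and a gene that is not reported here, together with up to 4 members per gene list; the 28 lists hold 405 genes, 63 of them in the table. Genes called only without removal replicate 1 were named after their values were seen. The members and lists were chosen with earlier results of these data known. Promoter sequences came from RefSeq (GRCm38.p6), and 24 of the 35 called genes had one by symbol.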

Additional observations from a re-analysis of the deposited data

Results flagged for a closer look

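In 5 of 56 genes checked, 1 of the 4 removal libraries lay apart from the other 3 (a gap to its nearest neighbour, as a share of the whole range, above Dixon's critical value, which chance gives in about 1 group in 20). Removal replicate 1 was that library for Clec2e, at 30.1 normalised counts (gap 0.937 of the range), for Tle4, at 564 (0.908), and for Scgb2b12, at 54.7 against 0 in the other removal libraries. Removal replicate 3 was that library for Rhob, at 1936 (0.925), and for Aspm, a spindle protein, at 726 (0.838).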

How the results depend on the processing

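Against 35 called genes in the main analysis, the count ran from 0 to 49 when 1 ligature or removal library was left out in edgeR, and from 36 to 61 in DESeq2 (61 without removal replicate 1, a tool and library left out together after the data were seen). The count was 29 with TMM, 46 with median-of-ratios factors, 51 in DESeq2, 35 with no filter, 34 with a mean of at least 50 normalised counts, 31 with 7 libraries, 49 with limma on batch-corrected values and 47 with library set as a term (47 also when removal replicate 1 was left out). With the replicate number as a block (replicates 1 to 3) 0 genes were called, with 40 at an unadjusted p under 0.05; on the same 9 libraries without the block, an alternative chosen after seeing the data, the count was also 0, with 47. The labels do not pair the libraries, and same-numbered ligature and removal libraries did not deviate together (correlations -0.398, -0.285 and -0.0535). The difference between library sets was called in 0 genes with TMM and both filters, and in 1 with DESeq2. Scgb2b12, at 0.11 and not called in the main analysis, turned to -6.09 in DESeq2 without removal replicate 1, where the removal group holds 0 counts. Depth is unknown, since the table holds part of each library.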

Other observations

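Of 176 genes, 2 had every library of set B above every library of set A (Matn4 and the ribosomal protein gene Rps23), and 2 had every library of set B below (Fbrs and Piezo1, the mechanically gated channel). Piezo1 and Fbrs had log2 differences of 0.22 and 0.21 between removal and ligature, and were chosen after their values were seen. These 4 genes divide the libraries by set in naive, ligature and removal tissue alike.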
